A study of Mus musculus with 4 samples.

Results

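Ucma-rich chondrocytes without F3 are the cells described here, from single-cell transcriptomes of the tibiae of a mouse at postnatal day 6. Ucma encodes a secreted Gla protein of young cartilage, and F3 encodes tissue factor, the cell-surface starter of blood coagulation. The cells were chosen by measured values. A barcode entered with at least 1600 genes, at most 10% of its unique molecular identifiers (UMIs, the count of captured transcripts) from mitochondrial genes, at least 100 Col2a1 and at least 10 Ucma UMIs per 10000, under 2 UMIs of F3, under 5 Pth1r and under 20 Col10a1 UMIs per 10000, at most 2 Ptprc UMIs, and under 5 UMIs of Top2a and Mki67 together. The rule found 670 cells, which are 8.12% of the 8256 barcodes that passed the first 2 limits, of 14181 in all. Of the 2065 cells that also passed the limits on Col2a1 and Ptprc, these 670 were the most numerous of the sets compared.

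The study followed the hypertrophic chondrocytes (HCs) of the growth plate and the osteoblast lineage cells that descend from them. Its P6 sample is 1 library for which both tibiae of 1 male mouse were cut without their secondary ossification centres, digested with dispase and collagenase, and their cells combined. The mouse carried Col10a1Cre, the Rosa26-Tdtomato reporter, Irx3 +/Δ and Irx5 +/-, and the labels call it an Irx3/5 heterozygous control. The Cre is driven by Col10a1, a gene of HCs, so the loss of 1 Irx3 allele is directed to HCs and their descendants, while Irx5 is heterozygous in every cell. All cells compared below carry this genotype. Irx3 was read at 5.34 CPM (4.11 to 6.82) and Irx5 at 4.17 CPM (3.09 to 5.497) in the Ucma-rich cells without F3, and at 23.1 and 83.7 CPM in cells rich in Col10a1. CPM stands for UMIs summed over a set of cells per 1000000 UMIs of that set, and each range in brackets after a CPM, a share or a log2 ratio is its 95% interval. A single library allows no test over samples, and neither p-values nor standard errors are printed. Cells are not replicates of a condition. The intervals cover counting error only, and UMIs of 1 cell are not independent.

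In the growth plate, chondrocytes pass from a reserve or resting zone through proliferating columns to pre-hypertrophic chondrocytes, which make Indian hedgehog (Ihh) and the PTHrP receptor (Pth1r), and then to HCs, which make type X collagen (Col10a1). PTHrP, encoded by Pthlh, comes from cells near the ends of the bone and holds back hypertrophy, while Ihh acts back on the younger cells. Ucma, Dlk1, a membrane protein related to Notch ligands, and Sfrp5, a secreted Wnt antagonist, are known from the upper part of the growth plate, and Matn1 encodes a cartilage matrix protein of immature and proliferating chondrocytes.

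The starts of the 2 genes that define these cells are shown because both hold a heptamer known to bind AP-1, a factor made of Fos and Jun proteins whose genes are described below. The windows run 5′ to 3′ from 250 bases before to 30 bases after the start site on the plus strand of GRCm38.p6, as given by RefSeq, with the heptamer in capitals. Ucma lies at chr2:4976122-4985748 and F3 at chr3:121723537-121735048, both protein-coding, in the GENCODE M21 annotation of GRCm38.
Ucma, chr2:4975872-4976151: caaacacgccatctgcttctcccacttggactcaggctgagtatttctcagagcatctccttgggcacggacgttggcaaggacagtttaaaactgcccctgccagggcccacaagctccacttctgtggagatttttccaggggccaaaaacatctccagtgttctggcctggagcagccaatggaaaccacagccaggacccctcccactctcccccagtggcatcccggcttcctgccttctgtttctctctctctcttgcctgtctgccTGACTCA
F3, chr3:121723287-121723566: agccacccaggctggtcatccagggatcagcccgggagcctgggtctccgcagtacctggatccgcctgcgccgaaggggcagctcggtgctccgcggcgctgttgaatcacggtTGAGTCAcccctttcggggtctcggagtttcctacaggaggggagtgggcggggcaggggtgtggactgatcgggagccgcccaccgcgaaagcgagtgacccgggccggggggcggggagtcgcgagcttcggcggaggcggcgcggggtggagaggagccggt
The letters searched were TGACTCA and TGAGTCA, each the reverse complement of the other, so that both strands were read. In the F3 window the match begins 135 bases before the start site, and in the Ucma window it begins at base 24 of the transcript. Of 32851 windows of this length, 4.94% hold 1 or both forms. A match of letters is a description, not a binding site.

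Depth differed between the sets of cells compared. The Ucma-rich cells without F3 held 3698 to 59551 UMIs each, and 11991751 in all. Their median cell had 17280.5 UMIs and 3515 genes. The median was 16848 UMIs in Ucma-rich cells that pass the same limits with 2 or more F3 UMIs (210 cells), 22895 in cells under the limits of both Ucma and Pth1r (428 cells, of which 375 also meet the F3 limit), and 30191 in cells at or above the Pth1r limit (396 cells). It was 32983 in Col10a1-rich cells (81 cells), 29599 in cycling Ucma-rich cells at or above the limit of Top2a and Mki67 (150 cells) and 12619 in 1263 leukocytes, taken as more than 2 Ptprc UMIs with under 20 Col2a1 UMIs per 10000. Because depth differed, shares of cells with a UMI of a gene are given, unless stated, after every cell was thinned to 5000 UMIs, which left out 3 of the 670 cells, 1 of the 210, none of the 428 or the 396, and 55 leukocytes. Scrublet marked 28 of the 670 cells as doublets (4.18%). The F3 limit was not applied to the sets low in Ucma and Pth1r, rich in Pth1r or Col10a1, or cycling. Doublets were kept here. Without them 642 cells were left, and the closing section gives only the counts or share that moved.

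The limits cut through a continuous range of cells for Ucma and F3. The lowest Ucma value inside was 10.01 and the highest outside was 9.9987 UMIs per 10000, and 375 cells failed the Ucma limit alone. Values of Ucma inside ran from 10.01 to 167 per 10000, with a median of 22.9. Of the 880 cells that met every limit but that on F3, 515 had no F3 UMI, 155 had 1 and 61 had 2. The words "without F3" therefore mean under 2 UMIs, and 155 of the 670 cells did hold 1. The share with 2 or more was 24.4% (15.8 to 34.9) below 10000 UMIs, 24.1% (20.4 to 28.2) from 10000 to 20000 and 23.2% (18.5 to 28.5) above. After thinning, an F3 UMI was found in 7.196% (5.35 to 9.43) of the 670 cells, 10.05% of the cells low in Ucma and Pth1r and 1.16% of leukocytes. The highest Pth1r value inside was 4.87 per 10000 and the lowest outside 5.10, and 32 cells failed that limit alone. No cell failed the Col10a1 limit alone, since the highest value among the 670 cells was 3.85 per 10000.

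Dlk1 and Sfrp5, markers outside the rule, were higher here than in cells low in Ucma and Pth1r, Pth1r-rich or Col10a1-rich cells. Dlk1 was not higher here than in F3-expressing cells. Col2a1, the main cartilage collagen and a gene of the rule, made up 4.55% of all UMIs, and it ranked first. Ucma, also of the rule, was at 2801 CPM (2771 to 2831), against 549 CPM in cells low in Ucma and Pth1r, 438 in Pth1r-rich cells and 199 in Col10a1-rich cells. These values describe the choice of cells. Dlk1 was at 284 CPM (275 to 294) in the chosen cells, 332 CPM in F3-expressing, 189 in cycling Ucma-rich cells, 56.3 in cells low in Ucma and Pth1r, 36.7 in Pth1r-rich and 30.7 in Col10a1-rich cells. A Dlk1 UMI was found after thinning in 54.3% (50.4 to 58.1) of the 670 cells and in 1.49% of leukocytes, so its share was far over what free RNA gave in cells that should lack it. Sfrp5 was at 133 CPM (127 to 139.9) in the chosen cells, and 103 CPM in F3-expressing, 69.1 in cells low in both genes, 54.9 in cycling, 32.4 in Pth1r-rich and 4.33 in Col10a1-rich cells. Matn1 did not set the cells apart. Its level was 3087 CPM (3056 to 3118), against 2753, 2446 and 2239.9 CPM in F3-expressing cells, cells low in both genes and Pth1r-rich cells, and it had a UMI after thinning in 97.2%, 96.2%, 97.9% and 97.98% of them.

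**Figure D1:**
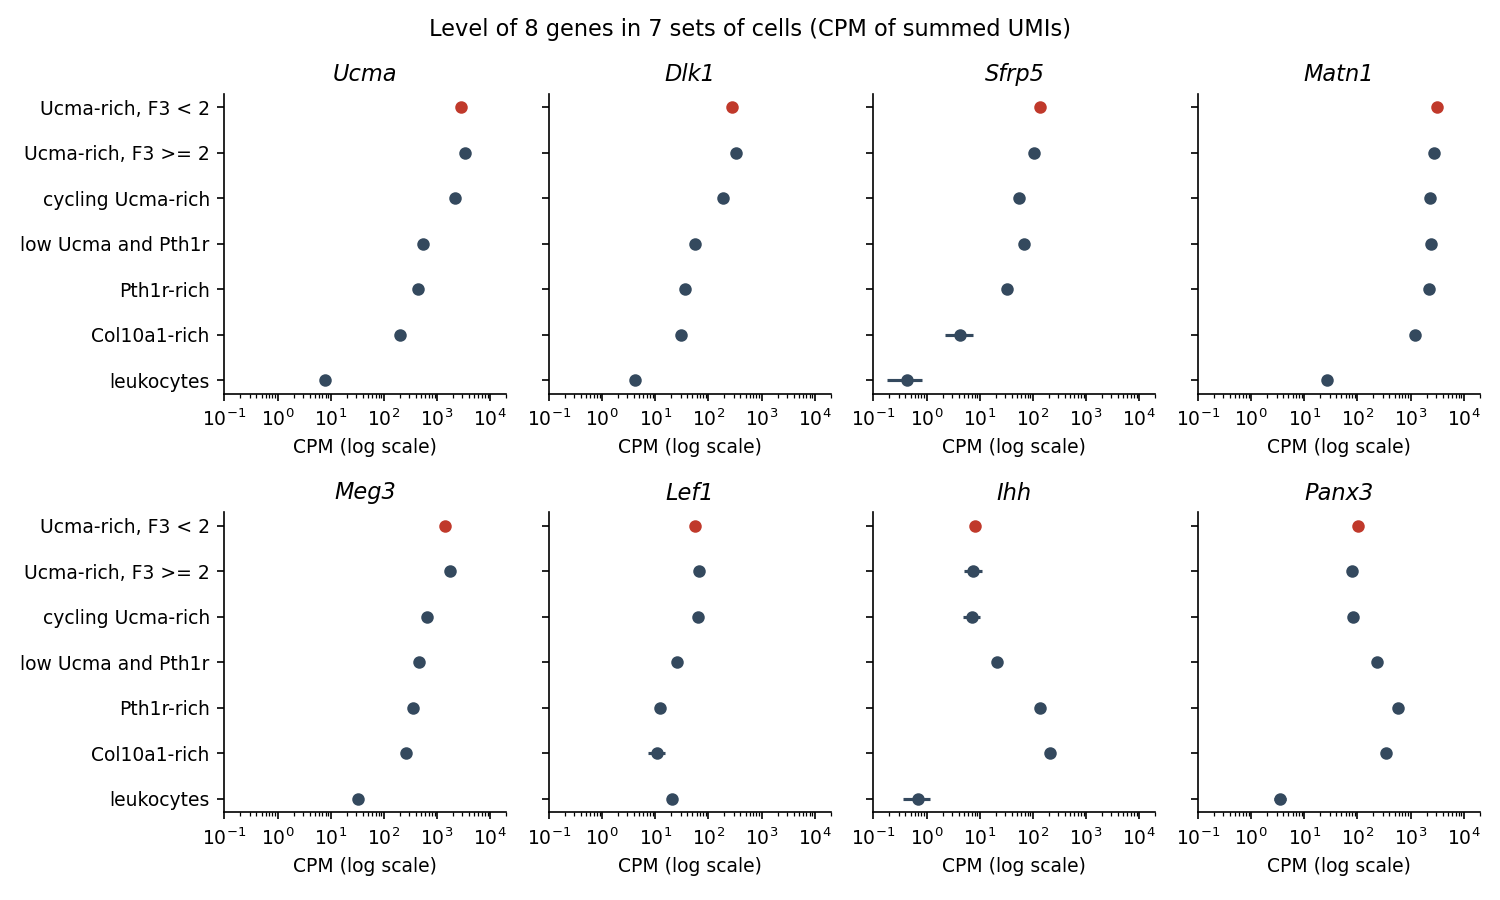
Level of 8 genes in 7 sets of cells, as CPM on a log scale, with 95% counting intervals that are mostly narrower than the points. The 670 cells are in red. Dlk1 and Meg3 are highest in both Ucma-rich sets and lowest among chondrocytes in the Col10a1-rich cells, Matn1 lies between 1217 and 3087 CPM in every set of chondrocytes, and Ihh and Panx3 are higher in Pth1r-rich and Col10a1-rich cells.

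UMIs of the markers were found in different combinations from cell to cell. At 5000 UMIs per cell a gene can be missed by sampling, so a cell without a UMI may still express it. How far this and free RNA set the shares below was not tested. Of the 667 thinned cells, 147 (22.0%) held a UMI of each of Dlk1, Sfrp5 and Matn1, 279 (41.8%) of 2 of these and 240 (36.0%) of 1. Sfrp5 was found in 43.1% (37.9 to 48.4) of the 362 cells with a Dlk1 UMI and in 23.9% (19.3 to 29.1) of the 305 cells without. Gas1, a hedgehog co-receptor, was found in 14.4% (10.1 to 19.6) of cells with a Sfrp5 UMI and in 6.39% (4.29 to 9.11) of cells without one. Pthlh, which marks resting chondrocytes, was at 6.59 CPM (5.22 to 8.21), and 6.87% of the 670 cells held a UMI before thinning. It was at 6.698 CPM in F3-expressing cells, 0.808 in cells low in Ucma and Pth1r and 0.169 in Pth1r-rich cells, and no leukocyte held a UMI, which allows up to 0.238% of them. Foxa2, also listed for the reserve zone, was at 3.75 CPM and at 18.1 CPM in Pth1r-rich cells, so that it stood in the opposite order to Pthlh. Both genes were under 20 CPM in these sets and entered no count below.

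Markers of other cell types were found in the sums, unevenly spread over cells. The articular genes Prg4 (lubricin), Gdf5 and Erg were at 5.003, 4.17 and 0.334 CPM, and 93.3% of the Prg4 UMIs came from 5 cells. Of 9 osteoblast genes, 4 reached 20 CPM, with a summed level of 1486 CPM led by Col1a2, none at 0 UMIs, and 31.9% of it in 5 cells. Of 7 erythroid genes, 4 reached 20 CPM, and their sum of 5006 CPM was led by Hbb-bs, an adult beta globin, at 2671 CPM. A median cell held 7 erythroid UMIs, as did the median leukocyte, and 5 cells held 56.8% of them. Of 12 leukocyte genes, 6 reached 20 CPM, with a sum of 813 CPM led by S100a9 and 62.9% of it in 5 cells. The 7 endothelial genes summed to 36.02 CPM, the 7 genes of muscle and pericytes to 179 CPM, led by Acta2, and the 6 genes of marrow stroma to 80.2 CPM, led by Lpl. In these 3 lists, 5 cells held 40.97%, 25.02% and 17.5% of the UMIs. In each of these lists every gene had at least 1 UMI. The part of such cells or free RNA in the results below was not tested, except where values without them are given.

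Reporter sequence was nearly lacking. The reporter shares are of all cells of a set, without thinning. The reporter transcript ends in the WPRE element, and the study took a WPRE value over 14 as the sign of an HC-derived cell. Its unit is not stated there, and it was read here as UMIs per cell. Whether the study counted it so was not tested. Of the 670 cells, 2 passed this limit, which is 0.299% (0.0362 to 1.07). Scrublet marked both as doublets, as it did 11 of the 15 leukocytes past the limit and none of the 38 such Col10a1-rich cells. The share was 0 of 210 F3-expressing cells, which allows up to 1.43% (3 of 210 cells), 0.935% in cells low in both genes, 1.52% in Pth1r-rich cells and 46.9% (35.7 to 58.3) in Col10a1-rich cells. In leukocytes, which should lack it, the share was 1.19% (0.666 to 1.95). The share among the Ucma-rich cells without F3 was not above this background, and the 2 intervals overlapped. At least 1 WPRE UMI was found in 18.4% (15.5 to 21.5) of the 670 cells and in 24.6% (22.3 to 27.1) of leukocytes. The summed WPRE level was 17.4 CPM (15.1 to 19.96) against 43.8 CPM in leukocytes and 608 CPM in Col10a1-rich cells.

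**Figure D2:**
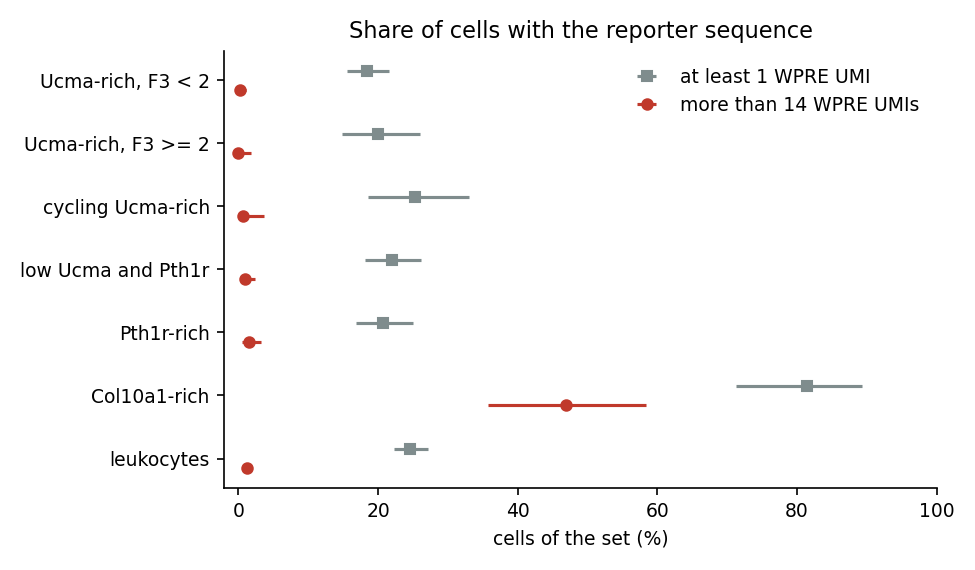
Share of cells with the reporter sequence in 7 sets of cells, in percent, with exact 95% intervals and without thinning. Red points count cells with more than 14 WPRE UMIs and grey squares those with at least 1. The 670 cells sit under the leukocytes on both measures, with overlapping intervals on the first. The cycling Ucma-rich cells sit slightly above the leukocytes on the second, and the Col10a1-rich cells stand apart with 46.9% and 81.5%.

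Against cells low in both Ucma and Pth1r, the Ucma-rich cells without F3 were higher in a short list of genes. Among those of at least 50 CPM, Dlk1 and Meg3 led. Dlk1 was 4.98-fold higher and Meg3, an imprinted noncoding RNA of the same locus, 3.12-fold. Among 4895 genes with at least 20 CPM in either set and outside the rule, 34 (0.695%) were at least 2-fold higher and 29 (0.592%) at least 2-fold lower, and the median log2 ratio was -0.01. A gene with 20 CPM in 1 set only was tested because of its level there, so its difference is partly set by this limit, and 10 of the 34 and 13 of the 29 had 20 CPM in both. Folds and log2 ratios are taken after adding 1 CPM to both sets, and "higher" or "lower" with a count means past 2-fold.

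Meg3 was at 1419 CPM (1397 to 1440.2) against 453 CPM (440.2 to 467), and had a UMI after thinning in 90.9% against 73.8% of cells. Dlk1 lies at chr12:109452823-109463336, Meg3 at chr12:109541001-109571726 and Mirg, a host RNA of microRNAs, at chr12:109729764-109749460, all on the plus strand, and Mirg was also higher, at 41.4 against 17.3 CPM. Of the 18 imprinted growth genes listed, 17 were tested, 3 were higher and none lower, and the 3 are the ones of this locus. Without cells of more than 5 blood-gene UMIs per 10000, called blood-rich below, Mirg was at a log2 ratio of 0.82, under 2-fold, and 2 of the 17 were higher. This limit left 342 of the 670 cells. The median cell of the 670 held 7 erythroid UMIs, as did the median leukocyte, so cells near that common level were left out too. The median was 8 in cells low in Ucma and Pth1r and 9 in Pth1r-rich cells, both deeper sets. At a like number of blood UMIs, a limit per 10000 leaves out shallow cells first, so it also changes the depth of the sets compared. Whether a call lost this way came from blood cells, free RNA, depth or the smaller number of cells was not tested. Smoc1, a matricellular modulator of BMP signals, was at 60.9 CPM (56.5 to 65.5) against 23.04 CPM (20.1 to 26.2). Lef1, a transcription factor of the Wnt pathway, was at 56.4 CPM (52.2 to 60.8) against 25.8 CPM (22.7 to 29.1). Penk, the enkephalin precursor, stood at 77.2 against 30.4 CPM, and fell just under 2-fold, to a log2 ratio of 0.97, once blood-rich cells were left out. Cpm, a membrane carboxypeptidase, differed by a log2 ratio of 1.25 (1.098 to 1.41), Tspan6, a tetraspanin, by 1.17 (1.02 to 1.32), and Rrad, a small GTPase, by 1.400 (1.204 to 1.59). Maff, a small Maf transcription factor, and Acta2, smooth muscle actin, were close to the 2-fold limit at 1.02 and 1.01, and Maff was under it at 0.87 without those blood-rich cells. For Acta2, 5 cells held 31.4% of the UMIs of the 670 cells, and it averaged over cells at a log2 ratio of 0.67, under 2-fold.

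For several of the lowest ratios, a few cells of the other set held most of the UMIs. Bglap (osteocalcin) was at 21.3 CPM (18.7 to 24.04) against 349 CPM (337 to 360.4), but 5 cells held 97.3% of the UMIs in the cells low in Ucma and Pth1r, and without the 5 top cells of each set its log2 ratio was 0.24. The same held for Bglap2, whose ratio went from -3.81 to -0.03, and for Fabp4, a fatty acid carrier, which went from -1.899 to 0.01. Ibsp (bone sialoprotein), Serpinf1, Col1a1, Spp1 (osteopontin) and Mmp13 were lower with log2 ratios of -2.65, -2.17, -1.75, -1.55 and -1.45, and stayed past 2-fold without the 5 top cells, at -1.32, -1.23, -1.59, -1.35 and -1.32. Col1a1 was at -1.02 without doublets. Beside them, the 9 osteoblast genes summed to 4319.7 CPM in the cells low in both genes, 59.0% of it in 5 cells, against 1486 CPM. Of the 29 lower genes, 16 had 50% or more of their UMIs in 5 cells of that set. P3h2 and Serinc5 were lower over many cells. P3h2, a collagen prolyl hydroxylase, was at 42.9 CPM (39.2 to 46.7) against 112 CPM (106 to 119), with a UMI after thinning in 12.9% against 35.98% of cells, and Serinc5, a membrane protein, was at 50.2 CPM (46.3 to 54.4) against 119.5 CPM (113 to 127).

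Genes of the hypertrophy list were among the lower ones. Of 18 listed, 14 were tested, 6 were lower and none higher, with a median log2 ratio of -0.90 beside -0.01 over all genes. Panx3, a channel protein of prehypertrophic cells, was at 101 CPM (95.3 to 107) against 233 CPM (224 to 243), and Mef2c, a transcription factor that drives hypertrophy, was at 91.3 CPM (85.98 to 96.9) against 199 CPM (191 to 208). Without blood-rich cells Panx3 was at a log2 ratio of -0.99. Ihh was already scarce in both sets, at 8.01 against 21.1 CPM. The other 3 lower genes of the list are Ibsp, Spp1 and Mmp13, which osteoblasts also make. Without the 5 top cells per gene, 13 genes were tested, 6 were lower and the median was -0.86.

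Of the lists of the reserve zone and of hedgehog signalling, only Dlk1 was past 2-fold with 20 CPM or more in both sets. Of 16 reserve zone genes, 8 were tested beyond the rule, with 3 higher (Dlk1, Gas1 and Clu) and a median log2 ratio of 0.88. Without the 5 top cells per gene, 6 were tested, 1 was higher and the median was 0.58. Gas1 was at 28.4 CPM (25.4 to 31.5) against 8.59 CPM (6.86 to 10.6), with 40.9% of its UMIs in 5 cells, and Boc, the other hedgehog co-receptor, was at 32.3 CPM (29.1 to 35.7) against 10.3 CPM (8.404 to 12.5). Of 8 hedgehog genes tested, Gas1 and Boc were higher and Ihh was lower, each with 20 CPM in 1 set only. Of the 6 that could be tested without the 5 top cells per gene, 1 was higher and none lower. Ptch1, the hedgehog receptor and a target of the pathway, was at 211 CPM (203 to 219) against 226 CPM (217 to 236), and Gli1, another target, at 28.7 CPM (25.7 to 31.9) against 16.9 CPM (14.4 to 19.6). Bmp7, a BMP ligand, was higher at 37.2 against 16.5 CPM and Bambi, a decoy BMP receptor, lower at 17.8 against 39.4 CPM, the only 2 of 11 tested BMP genes past 2-fold, each with 20 CPM in 1 set only. Spry2, which is induced by FGF signals and dampens them, was the only 1 of 5 tested FGF genes past 2-fold, at 26.1 against 12.4 CPM, and none of the 5 was past it without blood-rich cells (Spry2 at 0.99).

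No tested cartilage matrix gene passed 2-fold, beside 0.695% higher and 0.592% lower among all tested genes. The 9 tested collagen genes had log2 ratios from -0.07 to 0.60, with a median of 0.19. The 18 tested matrix protein genes ran from -0.80 to 0.83, with a median of 0.24. Col9a1 was at 6924 against 6089 CPM, Acan (aggrecan) at 6558 against 6602 CPM and Hapln1, the link protein, at 3868 against 5339 CPM. The gene listed as 3110079O15Rik, named Snorc in RefSeq, a chondrocyte proteoglycan, was at 7429 against 8220.1 CPM. The chondrocyte factors Sox9, Sox5 and Sox6 were at 1246, 209.7 and 113 CPM against 1109, 172 and 91.8 CPM. Of 20 factors tested in their list, Mef2c alone passed 2-fold.

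**Figure D3:**
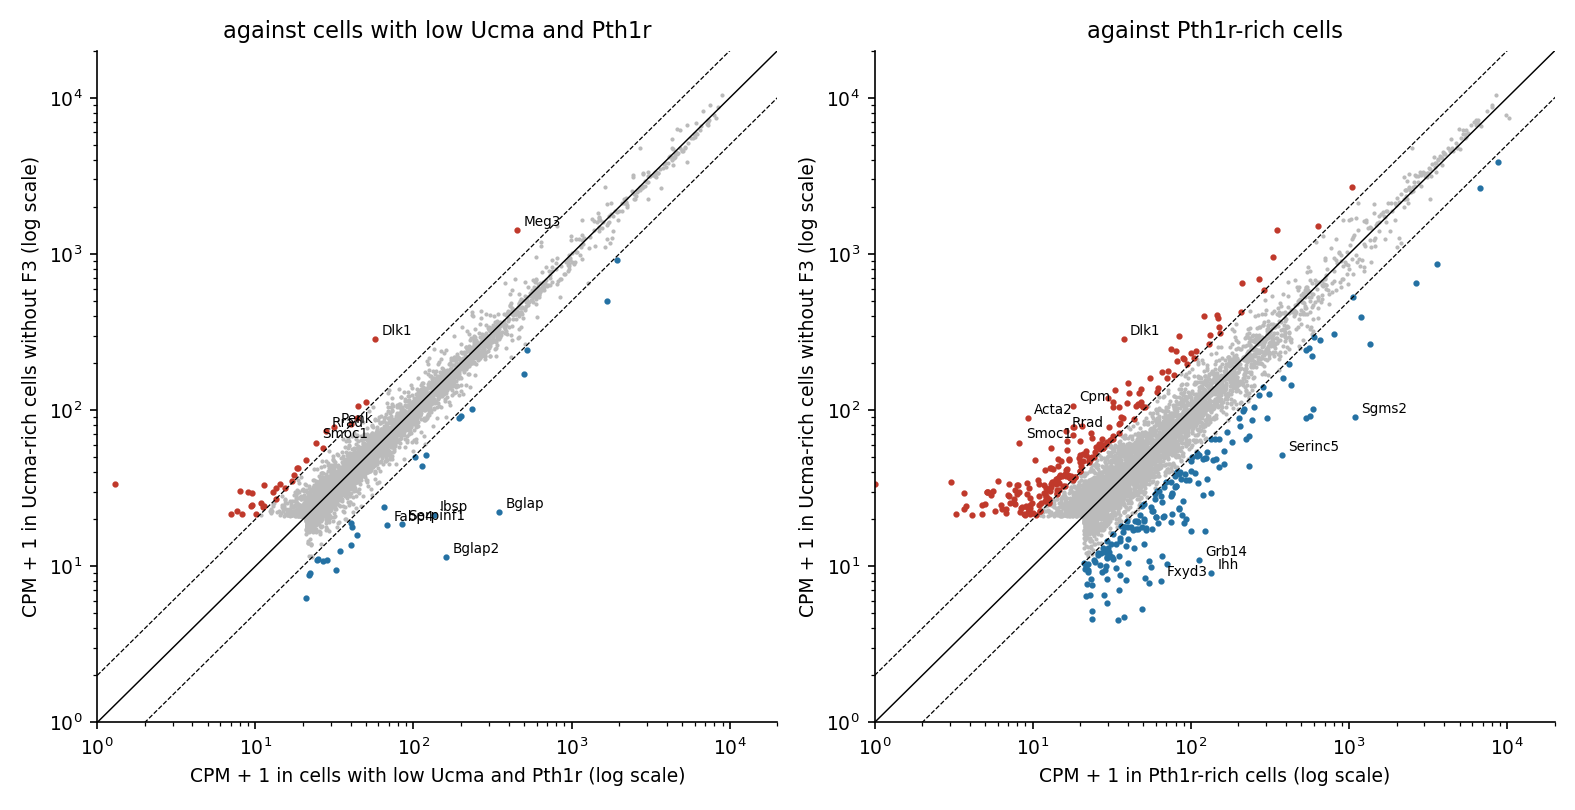
Level of each tested gene in the 670 cells (vertical axis) against cells low in Ucma and Pth1r (left) and Pth1r-rich cells (right), as CPM plus 1 on log axes. Genes past 2-fold, outside the dashed lines, are red where higher and blue where lower in the 670 cells, and 5 genes in each direction are named. Dlk1 stands above the diagonal in both panels, and more genes leave it on the right (216 higher, 185 lower) than on the left (34 and 29).

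Against Pth1r-rich cells the distance was wider. Among 5001 genes tested, 216 (4.32%) were higher and 185 (3.7%) lower, with a median log2 ratio of 0.00. Of these, 83 and 95 had 20 CPM in both sets. Dlk1 was 7.58-fold higher, Smoc1 7.503-fold, Cpm 5.99-fold, and Ihh was 14.99-fold lower. Of 15 dissociation and stress genes tested, 13 lay above 0, with a median of 0.37, and none passed 2-fold. The median mitochondrial share was 3.99% in the 670 cells and 3.30% in the Pth1r-rich cells. The part of cell handling in this comparison was not tested. Because the Pth1r-rich cells were deeper, shares after thinning are given for Dlk1, Smoc1, Cpm and Lef1. No thinned share is given for the other genes of this comparison.

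The 10 genes leading on the higher side were taken among those of at least 50 CPM and 100 UMIs. Of these 10, Dlk1 was found after thinning in 54.3% against 15.2% of cells, Smoc1 in 23.5% against 4.04%, Cpm in 32.7% against 8.08% and Lef1 in 22.8% against 7.58%. Meg3 was at 1419 against 349 CPM (338 to 359) and Sfrp5 at 133 against 32.4 CPM (29.2 to 35.8). Rrad, Penk and Apoe, a lipid carrier, had log2 ratios of 2.19 (1.96 to 2.41), 2.12 (1.903 to 2.33) and 2.09 (1.88 to 2.31). With blood-rich cells left out, Apoe stood at 1.46 and Meg3 at 1.57. Of the 10, Acta2 had the highest ratio at 3.25 (2.97 to 3.54), from 23.3% of the 670 cells before thinning, while the pericyte gene Rgs5 came almost wholly from 5 cells (94.4% of its UMIs).

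Among genes of at least 50 CPM, those lower in the Ucma-rich cells without F3 were led by Ihh. It was at 8.01 CPM (6.48 to 9.78) against 134 CPM (127 to 141). Sgms2, a sphingomyelin synthase, was at 88.7 CPM (83.5 to 94.2) against 1096 CPM (1077 to 1115), and Mef2c at 91.3 against 562 CPM (549 to 576). Alpl, the phosphatase of mineralizing cells, was at 15.8 CPM (13.6 to 18.2) against 122 CPM (115 to 128). Serinc5, Grb14 (an adaptor of the insulin receptor), Fxyd3, Ehd3, Mustn1 and Cd200, the last of the reserve zone list, had log2 ratios of -2.89, -3.36, -2.99, -2.79, -2.78 and -2.602. Of 14 hypertrophy genes tested, 7 were lower and none higher, with a median of -1.12. Panx3 was at 590.4 CPM (577 to 604) in Pth1r-rich cells and Ppa1, a pyrophosphatase, at 2662 against 655 CPM.

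Of 9 reserve zone genes tested, Dlk1, Sfrp5, Gas1 and Clu were higher and Cd200 was lower, with a median log2 ratio of 0.93. Dlk1 and Sfrp5 alone of these had 20 CPM in both sets. Without the 5 top cells per gene, 7 reserve zone genes were tested, Dlk1 and Sfrp5 were higher, Cd200 was lower and the median was 0.46. Without blood-rich cells, 8 were tested, Dlk1, Sfrp5 and Gas1 were higher, Cd200 was lower and the median was 0.59. In the hedgehog list, the ligand Ihh was lower and 4 of 8 tested genes were higher in the 670 cells, namely Gli1, Boc, Gas1 and Scube2, and all 5 reached 20 CPM in 1 set only. Without the 5 top cells per gene these were 3 of 7. Gli1 was at 28.7 CPM (25.7 to 31.9) against 7.25 CPM (5.797 to 8.95) and Ptch1, at 211 CPM (203 to 219) against 109 CPM (103 to 115), was just under 2-fold. Of 12 tested Wnt ligands, receptors and targets, the ligands Wnt4, Wnt5a, Wnt5b and Wnt11 were lower, and the receptor Fzd2 and Lef1 were higher. Wnt4 and Wnt5b alone of these had 20 CPM in both sets. Wnt5b was at -0.98 without blood-rich cells. Wnt4 was at 143 CPM (137 to 150.3) against 429.8 CPM (418 to 442). Of the antagonists, Sfrp1 and Sfrp5 were higher and Frzb was lower, at 50.6 against 20.6 and 20.5 against 75.2 CPM for Sfrp1 and Frzb. Of 5 FGF genes tested, Fgfr1 and Fgfr2 were higher and none was lower, and Fgfr1 alone of these 2 had 20 CPM in both sets. Fgfr1 was at 104 CPM (98.1 to 109.7) against 34.04 CPM (30.8 to 37.5) and Fgfr2 at 32.4 against 10.03 CPM, both higher, and Fgfr3, the receptor that restrains growth plate chondrocytes, stood at 248 against 486 CPM, under 2-fold. Hdac4, which holds Mef2c back, was higher at 45.5 against 18.8 CPM, and so was Nfatc2 at 298 against 82.6 CPM. Igf2, an imprinted growth factor, was at 196 against 93.2 CPM, while Cdkn1c, an imprinted inhibitor of the cell cycle, was lower at 857 against 3618 CPM. Of 18 matrix protein genes, Hapln1 and Comp were lower at 3868 and 2645 against 8693 and 6761 CPM, and none was higher. Globin and neutrophil genes also moved: Hbb-bs was at 2671 against 1036 CPM and S100a8 at 237 against 80.1 CPM. With cells over 5 blood-gene UMIs per 10000 left out, 14 hypertrophy genes were tested and 7 were lower, as before.

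F3-expressing Ucma-rich cells were close to the 670 cells in Dlk1 and stood apart in other genes, among them Mgp, Timp1, Ndufa4l2 and Egln1. Among 4977 genes tested, 19 (0.382%) were higher and 103 (2.07%) lower in the 670 cells, with a median log2 ratio of 0.01. Of these, 6 and 53 had 20 CPM in both sets. Without the 5 top cells of each gene, 32 were higher and 45 lower, and the median of all genes was 0.14. Dlk1 and Sfrp5 had log2 ratios of -0.22 and 0.37. Of 9 reserve zone genes tested, Clu and Mgp were lower and none was higher, with a median of -0.22, and Clu was at -0.90 without the 5 top cells. Without blood-rich cells, Gas1 was higher and Clu, Wif1 and Mgp were lower. Beside this comparison, the erythroid genes summed to 12781 CPM in F3-expressing against 5006 CPM in the 670 cells, with 62.9% and 56.8% of that in 5 cells and a median of 7 UMIs per cell in both. Leukocyte genes summed to 1161 against 813 CPM. Of the 103 lower genes, 28 had 50% or more of their UMIs in 5 F3-expressing cells.

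The genes higher without F3 include some known to answer to oxygen. Egln1, a prolyl hydroxylase that senses oxygen, was at 132 CPM (126 to 139) against 58.4 CPM (50.9 to 66.7), and was found after thinning in 40.5% (36.7 to 44.3) against 25.4% (19.6 to 31.8) of cells. Ndufa4l2, a mitochondrial protein induced by low oxygen, was at 926 CPM (909 to 944) against 446 CPM (424 to 467) (log2 ratio 0.82 with blood-rich cells left out), and Cox4i2, a respiratory subunit with the same habit, at 289.9 CPM (280.4 to 299.8) against 123 CPM (112 to 134). Il17b, a cytokine gene, was found in 44.4% (40.6 to 48.2) against 22.01% (16.6 to 28.2) of thinned cells. Nog (noggin, a BMP antagonist) was at 62.5 CPM (58.1 to 67.1) against 30.5 CPM (25.2 to 36.7), and its log2 ratio went from 1.01 to 0.97 with those cells left out. Aldoc, Id2 and Txnip came just under 2-fold at log2 ratios of 0.97, 0.95 and 0.95, Aldoc was at 0.70 with those cells left out, and Hist1h2ac reached 1.42, or 0.98 with blood-rich cells left out. Among genes of at least 50 CPM Acta2 led at 2.19, with 66.7% of the few UMIs in F3-expressing cells from 5 of them, and Rgs5, below that level at 22.3 against 1.34 CPM, had a ratio of 3.32. Of 13 oxygen and glycolysis genes tested, Egln1 alone passed 2-fold, 9 lay above and 4 below 0, and the median was 0.47. Pgk1 and Ldha, enzymes of glycolysis, were at 1254 against 749.6 and 1266 against 885 CPM. Vegfa, the vascular growth factor, ran the other way at 128 CPM (122 to 135) against 235 CPM (220.2 to 252).

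Among the genes lower without F3, Mgp, which inhibits mineral deposition and is a Gla protein like Ucma, was at 4792 CPM (4753 to 4831) against 10089 CPM (9988 to 10192). Inhba, an activin subunit, was at 10.6 CPM (8.83 to 12.6) against 58.9 CPM (51.4 to 67.3), with 60.5% of the latter in 5 cells, and its log2 ratio of -2.37 became -2.14 without the 5 top cells and -1.63 without blood-rich cells. Fam83g and AC127341.3, an annotated transcript with no settled name, had log2 ratios of -1.54 (-1.82 to -1.26) and -1.63 (-1.87 to -1.39). Timp1, an inhibitor of metalloproteases, was at 355 CPM (344 to 366) against 792 CPM (763 to 821), Ier3, an early response gene, at 348 against 782 CPM, Cdkn1a, an inhibitor of the cell cycle, at 161 against 404 CPM and Spry2 at 26.1 against 67.8 CPM. Spry2 went from a log2 ratio of -1.34 to -0.79 without blood-rich cells, under 2-fold. In the list of coagulation genes, which F3 belongs to, 5 were tested, none was above 0, and Tfpi2, Serpine2 and Plaur were lower. Of the 4 that could be tested without the 5 top cells per gene, 1 (Plaur) was lower, and of the 4 without blood-rich cells 2 were (Serpine2 and Plaur). Plaur, the urokinase receptor, was at 48.03 CPM (44.2 to 52.1) against 139 CPM (127 to 151). For Tfpi2 and Serpine2, 69.7% and 56.1% of the UMIs in F3-expressing cells came from 5 cells. The named genes Cd74, Cxcl12, Retnlg, Spp1, Mmp13 and Tmcc2 had log2 ratios of -4.45, -3.04, -1.77, -1.96, -1.96 and -1.605. Without the 5 top cells of each set none of the 6 stayed past 2-fold lower, at -0.27, -0.16, 1.21, -0.78, -0.38 and -0.72. Without blood-rich cells Mmp13 was at -0.84, and without doublets Cd74 and Mmp13 were at -0.85 and -0.50.

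The AP-1 genes, whose heptamer the F3 and Ucma windows hold, did not move together. Fos was at 1605 CPM (1582 to 1628) against 1116 CPM (1083 to 1151), Jun at 658 against 737 CPM, Junb at 914 against 814 CPM and Jund at 829 against 882 CPM. Of 15 tested genes of the list of dissociation and stress, Ier3 alone passed 2-fold.

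F3 chose these cells, and the genes just named were chosen for their difference by F3, so their levels by F3 UMIs are a description. In cells with 1 F3 UMI the level lay between those of the other 2 groups for 15 of the 19 genes higher without F3 and 82 of the 103 lower. The share with such an order among all tested genes was not taken. A choice of genes by their gap between the end groups favours this order, so these counts show nothing further. Mgp was at 4196 CPM (4154 to 4238) in the 515 cells with no F3 UMI, 6818 CPM (6719.9 to 6916) in the 155 with 1 and 10089 CPM in the 210 with 2 or more. Plaur stood at 38.2, 81.4 and 139 CPM in the same order. Ndufa4l2 went down from 982 CPM (962 to 1002) to 739 CPM (707 to 772) and 446 CPM, and Cox4i2 from 315 to 206 and 123 CPM. The median depth of the cells with 0 and 1 UMI was 17673 and 16656 UMIs. Along the same order of 0, 1 and 2 or more F3 UMIs, median Ucma was 21.95, 26.01 and 29.99 per 10000 UMIs and the median mitochondrial share 3.85%, 4.42% and 4.87%, and their part in the order of the genes was not tested. For Serpine2 and Tfpi2, among others, the order did not hold, with 48.6, 35.2 and 101 CPM for Serpine2.

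**Figure D4:**
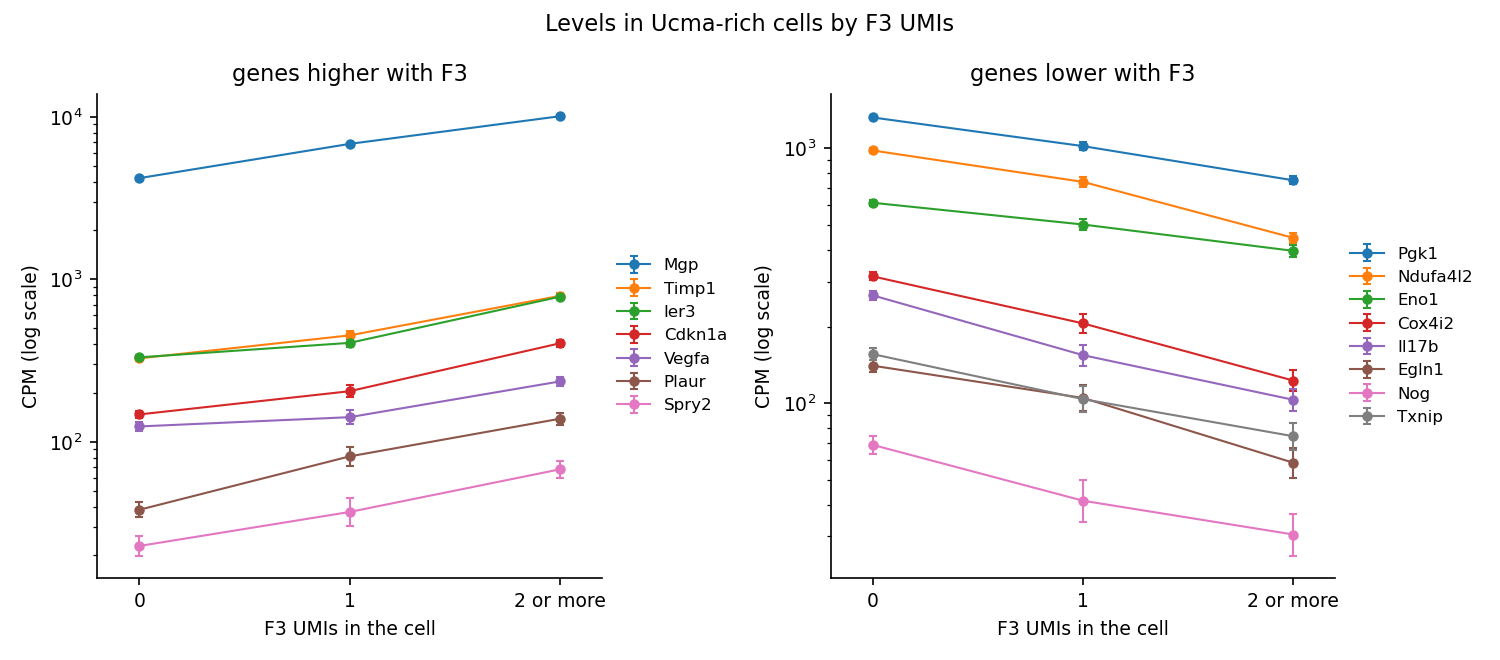
Levels of 15 genes, drawn for their difference by F3, in Ucma-rich cells with 0, 1 and 2 or more F3 UMIs (515, 155 and 210 cells), as CPM on a log axis with 95% counting intervals. The genes on the left stand highest and those on the right lowest in cells with 2 or more F3 UMIs, and the cells with 1 UMI lie in between. Not all genes drawn are past 2-fold. Genes past 2-fold that lack this order, Serpine2 and Tfpi2 among them, are not drawn, and it held for 15 of 19 higher and 82 of 103 lower genes.

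Within the 670 cells, the level of Ucma ordered other genes. The cells were put into terciles by Ucma per 10000 UMIs, of 224, 223 and 223 cells, with medians of 13.1, 22.96 and 50.4. Among 5054 genes tested between the upper and the lower tercile, 156 (3.09%) were higher and 88 (1.74%) lower in the upper tercile, with a median log2 ratio of -0.02. Of these, 60 and 42 had 20 CPM in both terciles. The median depth was 14051 UMIs in the upper and 19770 in the lower tercile, and the median mitochondrial share 5.04% and 3.19%.

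Dlk1 was higher in each step, from 117 CPM (107 to 128) to 235 CPM (220.4 to 249.96) and 584 CPM (558 to 611). Meg3 went from 753 to 1079.95 and 2795 CPM. Sfrp5 had overlapping intervals in the lower and the middle tercile, at 95.3 CPM (86.5 to 105) and 97.9 CPM (88.7 to 108), and stood at 232 CPM (216 to 249) in the upper. Matn1 stayed near its level throughout, at 2933, 3169 and 3197 CPM. Among genes of at least 50 CPM and 100 UMIs, Pappa2 had the largest ratio on the higher side. Pappa2 is a protease that frees insulin-like growth factors from their binding proteins. It was at 61.7 CPM (53.5 to 70.9) in the upper tercile and 1.31 CPM (0.482 to 2.86) in the lower, and after thinning it was found in 21.2% (15.99 to 27.1) and 0.901% (0.109 to 3.22) of cells. Cpz, a secreted carboxypeptidase that acts in Wnt signalling, was at 54.95 CPM (47.2 to 63.6) against 3.28 CPM (1.84 to 5.42), and Srpx2, a secreted protein, at 73.5 CPM (64.4 to 83.4) against 10.1 CPM (7.38 to 13.4). Penk and Apoe were at 183 and 172 CPM against 29.3 and 31.5 CPM. Pthlh was at 17.3 CPM (13.1 to 22.5) in the upper, 3.58 in the middle and 1.75 CPM in the lower tercile, so that most of its UMIs lay in the cells with the highest Ucma.

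Of 10 reserve zone genes tested, 7 were higher in the upper tercile and none was lower, with a median log2 ratio of 1.51. Of the 7, Dlk1, Sfrp5 and Mgp had 20 CPM in both terciles. Without blood-rich cells, with terciles drawn anew over the 342 cells left, 3 of 8 tested were higher (Dlk1, Gas1 and Clu), and Sfrp5 and Mgp were at 0.60 and 0.82. Wif1, a Wnt antagonist, was at 30.3 against 5.91 CPM and Mgp at 7942 against 3324 CPM. Igfbp7, a binding protein of growth factors, was at 825 CPM (794 to 857) against 229 CPM (216 to 244), Dcn (decorin) at 725 against 224 CPM and Fgfr1 at 164 against 68.3 CPM, and Fgfr1 was at a log2 ratio of 0.73 without blood-rich cells. Dcn is of the list of perichondrium and fibroblasts, of which 7 genes were tested, 6 lay above 0 and Col3a1, Col12a1 and Dcn were higher, with a median of 0.52. Without blood-rich cells Dcn stayed higher, Col3a1 and Col12a1 were at 0.89 and 0.54, Col1a1 was lower and the median was 0.27. Of 16 dissociation and stress genes tested, 15 lay above 0, and Jun and Nr4a1 were higher, with a median of 0.42. The part of such cells, of cell handling, and of the depth and mitochondrial share given above in the order by Ucma was not tested. All 9 tested cartilage collagens lay above 0, and none passed 2-fold. Of 12 hypertrophy genes, Mef2c, Sp7, Panx3 and Ppa1 were lower and Spp1 was higher. Panx3 was at 167 CPM (155 to 179), 96.03 CPM (86.9 to 106) and 14.5 CPM (10.7 to 19.3) from the lower to the upper tercile, and Mef2c at 138, 78.4 and 42.6 CPM. Of 13 oxygen and glycolysis genes, 4 were lower (Bnip3, Pgk1, Ldha and Car12) and none was higher, with a median of -0.81. Without blood-rich cells Car12 alone of the 13 stayed lower, and the median was -0.51. Pgk1 was at 1594 CPM (1558 to 1631), 1327 CPM (1292 to 1362) and 680.4 CPM (652 to 709). Nog and Gdf10, both of the BMP list, were also lower, Nog at 36.4 against 75.1 CPM and Gdf10 at 87.99 against 304 CPM, and Nog was at a log2 ratio of -0.57 without blood-rich cells. Spp1 was at 0.79 without the 5 top cells.

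Of the 5 genes named for low ratios, 4 are globin genes of red blood cells and the other is Prg2. Hbb-bs was at 293 CPM in the upper and 5626 CPM in the lower tercile, where 69.9% of its UMIs lay in 5 cells, and the median cell of both terciles held 7 erythroid UMIs. Hba-a1, Hba-a2 and Hbb-bt moved alike, with log2 ratios of -4.09, -4.25 and -4.22. With blood-rich cells left out the 4 globin ratios were -0.01, 0.26, -0.02 and 0.00. A choice of cells by blood-gene UMIs largely sets these ratios, so they show nothing further. Prg2, an eosinophil granule gene, had a log2 ratio of -5.25, with all its UMIs in 5 or fewer cells of each tercile. With blood-rich cells left out Prg2 was at -5.66, and Pappa2, Cpz, Srpx2, Penk and Apoe were at 5.05, 2.73, 1.97, 2.003 and 2.53.

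**Figure D5:**
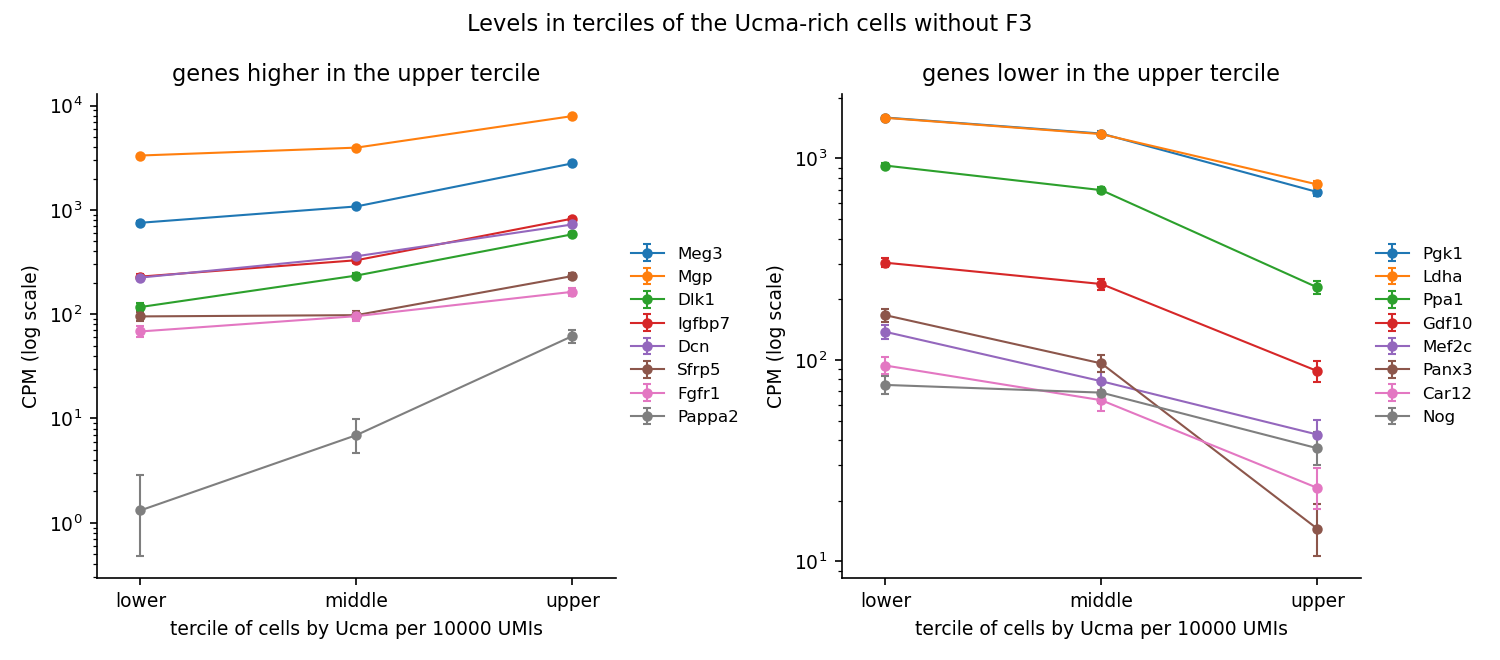
Levels of 16 genes in the lower, middle and upper tercile of the 670 cells by Ucma per 10000 UMIs, as CPM on a log axis with 95% counting intervals. Genes on the left are higher and those on the right lower in the upper tercile, with Pappa2 going from 1.31 to 61.7 CPM and Panx3 from 167 to 14.5 CPM.

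Across the 667 thinned cells, Spearman's correlation with the UMIs of Ucma was 0.48 for Meg3, 0.45 for Igfbp7, 0.40 for Dlk1, 0.14 for Sfrp5 and -0.05 for Matn1, and it was -0.53 for Pgk1, -0.50 for Ldha and -0.35 for Ppa1. The points are cells of 1 library at 1 depth, each drawn to the same total, so a gene that takes more UMIs leaves fewer for the rest, and these values describe the library only.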

How the data were processed

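The authors deposited raw UMI counts per gene and barcode (14181 barcodes, 31053 genes), made with Cell Ranger 3.1.0 on mm10, with a second count matrix of 98 exogenous sequences joined here by barcode. Seurat 3 is also named in the submitters' processing notes. The 4 sequencing entries were counted together and hold 1 library. Their annotation release is not given in those sources. The limits kept more barcodes than the study did, whose further filters were not applied.

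UMIs were summed per set of cells and scaled to CPM. Log2 ratios took a pseudocount of 1 CPM over genes with 20 CPM in either set. Poisson and Clopper-Pearson intervals are exact at 95%, and a count of 0 allows 3 counts. The doublet caller Scrublet (scanpy 1.11.5, Python 3.11.15) ran at an expected rate of 10%, and the ratio was tested on simulated data. Of repeated symbols, the identifier with the most UMIs was used. Coordinates are from GENCODE M21, which held 30934 of the 31053 identifiers, and promoters from RefSeq on GRCm38.p6. A motif was sought in 32851 windows, without those of 1 chromosome.

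Named are the genes of the rule, the 4 markers, the 10 genes in each direction of each comparison (5 for the terciles) with the largest ratio among genes of 50 CPM and 100 UMIs outside the rule, mitochondrial and ribosomal genes, and genes of 31 lists with 20 CPM or a 2-fold ratio. Markers of other cell types, and Irx3 and Irx5, are also named, and 1 gene that the rule names is not reported here. Of 418 listed genes, 417 were found. The members and lists were chosen with earlier results of these data known.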

Additional observations from a re-analysis of the deposited data

Results flagged for a closer look

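A pair of transgene sequences that the comparisons did not use were read above the 3 counts that a count of 0 allows. EGFP had 58 UMIs in the 8256 kept cells, though the genotype in the labels names no EGFP. Of these, 10 lay in the 396 Pth1r-rich cells, 1 in the 670 Ucma-rich cells without F3 and none in the 1263 leukocytes. CRE had 4 UMIs in the kept cells, none in the 670 cells and 1 in the 81 Col10a1-rich cells. The cause was not tested.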

How the results depend on the processing

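Of 1050 values of named genes under the alternatives, 20 changed sign and 74 went from past 2-fold to under it. The counts that moved by over 1.5 times, or the share that moved beyond its interval, are as follows, each in the order higher and lower where both moved. With no F3 UMI allowed, and cells with at least 1 counted as F3-expressing, 11 genes were higher than in the F3-expressing cells so drawn. With Ucma at 20 per 10000, 384 cells were left. The same limit then bounded the cells low in Ucma and Pth1r, from which 54 and 50 genes differed. With every cell thinned, the WPRE share was 0 and 49 genes were higher than in F3-expressing cells. At 5% mitochondrial UMIs the share was 0 and 170 genes were lower than in F3-expressing cells, and without Scrublet's doublets the share was 0. A scaling without the 20 most abundant, mitochondrial and ribosomal genes raises all CPM, so more genes passed 20 CPM: 47 were lower than in cells low in both genes, 37 higher than in F3-expressing and 347 higher than in Pth1r-rich cells. It moved the median ratio of all genes by -0.0025, 0.047 and 0.015. A pseudocount of 5 CPM left 12 higher than in F3-expressing cells. With no filter on low values, 135 and 125, 207 and 329, and 783 and 383 genes differed from cells low in both genes, F3-expressing and Pth1r-rich cells, and with 50 CPM these were 10 and 16, 7 and 59, and 90 and 113. Without cells of over 5 blood-gene UMIs per 10000, 342 cells were left. Without the 5 top cells of each gene, an alternative chosen after seeing the data, 17 genes were lower than in cells low in both genes, and 32 higher and 45 lower than in F3-expressing cells, where the median of all genes was 0.14 since the sets differ in size. The share with at least 1 WPRE UMI was 18.4%.

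Log2 ratios that changed sign were those of Prg2 between terciles (0.81 with no F3 UMI, 0.69 and 0.17 with Ucma at 5 and 20 per 10000, 0.64 without doublets), of Bglap and Bglap2 against cells low in both genes (1.21 and 1.76 with Ucma at 5 per 10000), and of Hbb-bs, Hba-a2, Hbb-bt and Hba-a1 between terciles (0.26, 0.65, 0.48 and 0.47 with Ucma at 20). Against F3-expressing cells, Cxcl12 and Retnlg stood at 0.61 and 0.50 without doublets, and Spp1, Retnlg and Tmcc2 at 0.068, 0.34 and 0.16 without blood-rich cells, which also gave 0.00073 and 0.26 for Hbb-bt and Hba-a1 between terciles. Without the 5 top cells, Bglap and Fabp4 stood at 0.24 and 0.013 and Retnlg at 1.21. For most of these genes 5 cells held much of the UMIs, and other causes were not tested.

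No paired analysis was possible because there is 1 library, and its replicate numbers are sequencing entries. For the same reason no replicate was left out. Counting error, which the intervals cover, does not include the spread between mice. Genes under 20 CPM in both sets entered no count. Markers of blood moved with F3 and Ucma, and values without blood-rich cells are given for some of the named genes. The cells were cut from a continuous range by Ucma, so counts move with the limit.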
